A study of Mus musculus with 6 samples.

Results

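The mitochondrial genome supplied 16 of the 31613 genes in the deposited count table: 13 protein genes, 2 rRNA genes and 1 tRNA gene. Together with Gm13340 and Gm28438, 2 nuclear copies of mitochondrial sequence, they make up the 18 genes described here. The 16 were taken by their symbol, which starts with mt-, and the group was singled out because earlier results from these same libraries had found it higher in the mutant. The genotype difference of these genes is therefore given as a description, and nothing rests on it as a test. Bulk RNA-seq was performed on dental papilla cells (mDPCs), the mesenchyme inside the developing tooth, taken from mice at postnatal day 6. There were 3 libraries from Dmp1-Cre;Setd2 fl/fl mice (cKO), in which Cre recombinase under Dmp1 control removes Setd2 mainly in odontoblasts, and 3 libraries from control mice, which the labels call wild type and the methods Setd2 fl/fl. Each library was a pool of RNA from 3 biological replicates, and p-values measure only the spread between these pools. The study's supplement lists 6 mice per genotype for this collection, fewer than 3 pools of 3 separate mice would need. Whether a biological replicate was a single mouse, and whether pools shared animals, is not stated. The libraries of a group may therefore not be independent. Library totals lay between 18557647 and 19164358 counts in cKO and between 18894240 and 19210750 in control. Levels are given as CPM, read counts scaled to library size with TMM factors. Setd2, the H3K36 methyltransferase that was targeted, had 102, 98.5 and 96.0 CPM in cKO libraries, against 98.0, 96.5 and 92.0 CPM in control libraries. These counts cover the whole gene in every cell collected, so they do not measure the deletion.

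The mitochondrial genome is a small circle that encodes core subunits of respiratory complexes I, III and IV and of ATP synthase, together with the rRNAs and tRNAs of the mitochondrial ribosome. Both strands are transcribed by a dedicated RNA polymerase, POLRMT, into long precursors, from which tRNAs are cut out to release mRNAs and rRNAs. Every other respiratory subunit, all mitochondrial ribosomal proteins and the whole transcription and processing machinery are encoded in the nucleus. Pieces of mitochondrial DNA have also been inserted into nuclear chromosomes during evolution, and annotation lists them as pseudogenes.

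The nuclear copies matter here because the authors counted reads without strand and dropped reads of low mapping quality, which includes reads that fit 2 places equally well. Matching the mitochondrial genome (chrM, 16299 bases) to the nuclear chromosomes of GRCm39 placed one long, nearly exact copy at chr1:24650616-24655269, on the minus strand. It covers chrM:6390-11042 at 99.936% identity, with 2 mismatches and 1 gap in 4654 aligned positions. Of the 16 genes, 6 lie wholly inside that stretch (mt-Co2, mt-Atp8, mt-Atp6, mt-Co3, mt-Nd3 and mt-Nd4l), 2 lie partly inside it (mt-Co1 with 31.3% of its bases and mt-Nd4 with 63.6%) and 8 lie outside it. A second copy at chr2:22477300-22480546 covers chrM:4441-7699 at 97.362% identity. All 16 genes have the same start, end and strand in the deposited table and in the GENCODE vM39 annotation of GRCm39, which lists 37 genes on chrM, 22 of them tRNA genes. This comparison covers mitochondrial positions alone. For the nuclear copies Gm13340 and Gm28438, positions in the deposited table differ from those in GRCm39.

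The sequences show how near the copies are. The first 80 bases of mt-Co2, which encodes a subunit of cytochrome c oxidase (chrM:7013-7092, plus strand), and of its pseudogene Gm28661 (chr1:24654567-24654646, minus strand) are the same base for base.
mt-Co2: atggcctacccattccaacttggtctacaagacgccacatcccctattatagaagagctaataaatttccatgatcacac
Gm28661: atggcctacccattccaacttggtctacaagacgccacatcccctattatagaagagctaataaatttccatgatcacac
The member Gm28438 (345 bases, chr1:24651856-24652200) is the copy of mt-Nd3, which encodes a complex I subunit. It has 344 identical bases and differs by T9461C, counted along chrM, in the start codon, shown in capitals within chrM:9459-9538 and chr1:24652121-24652200.
mt-Nd3: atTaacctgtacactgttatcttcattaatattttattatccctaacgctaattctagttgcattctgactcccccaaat
Gm28438: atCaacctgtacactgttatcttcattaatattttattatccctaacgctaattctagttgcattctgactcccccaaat
The member Gm13340 (1545 bases, chr2:22478115-22479659) is the copy of mt-Co1, the catalytic subunit of cytochrome c oxidase. It is more diverged, with 37 mismatches and 97.6% identity, of which 2 fall in the first 80 bases (chrM:5328-5407 and chr2:22479580-22479659), again in capitals.
mt-Co1: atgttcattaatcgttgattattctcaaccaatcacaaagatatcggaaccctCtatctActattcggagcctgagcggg
Gm13340: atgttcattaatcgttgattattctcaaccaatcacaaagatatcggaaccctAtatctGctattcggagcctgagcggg
Every stretch of 150 bases, the read length, within mt-Co2, mt-Atp8, mt-Atp6, mt-Co3 and mt-Nd4l occurs letter for letter in the nuclear genome, as do 98.5% of those in mt-Nd3, 59.2% in mt-Nd4 and 23.6% in mt-Co1. None of those in mt-Rnr1, mt-Rnr2, mt-Nd1, mt-Nd2, mt-Nd5, mt-Nd6 or mt-Cytb do.

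Counts on the 16 mt- genes made up 2.61%, 4.50% and 3.13% of all counts in cKO replicates 1, 2 and 3, against 2.14%, 1.97% and 1.40% in control replicates 1, 2 and 3. The means were 3.41 ± 0.979% in cKO and 1.84 ± 0.390% in control (SD, n = 3 libraries each), a ratio of 1.86. The groups did not overlap, but cKO replicate 1 stood closer to the controls than to cKO replicate 2. Set against nuclear counts outside the 100 highest genes, the shares were 3.18%, 5.67% and 4.22% in cKO libraries and 2.87%, 2.63% and 1.94% in control libraries. Bulk RNA cannot tell more mitochondrial RNA per cell apart from a different mix of cells.

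**Figure D1:**
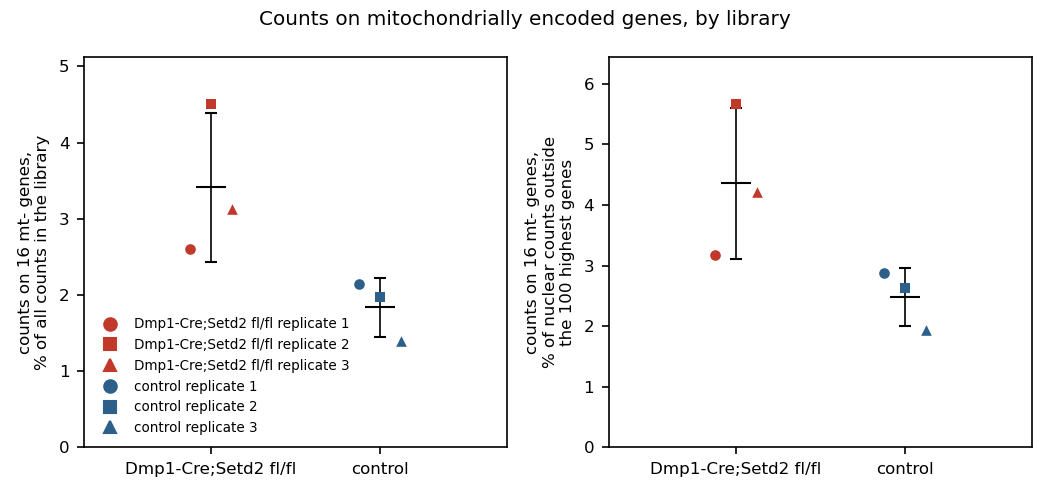
Counts on the 16 mt- genes in each library, as a percentage of all counts (left) and of nuclear counts outside the 100 highest genes (right). Points are libraries, with marker shape giving the replicate number, and bars are the mean ± SD of 3 libraries. On the left the cKO libraries sit between 2.61% and 4.50% and the control libraries between 1.40% and 2.14%.

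Complex I, NADH dehydrogenase, takes 7 of its subunits from the mitochondrial genome, and their summed level was 7044, 14095 and 10085 CPM in cKO libraries, against 6746, 6089 and 4434 CPM in control libraries. mt-Nd1, a membrane subunit, had 2434, 5353 and 2996 CPM in cKO libraries and 2073, 1829 and 1262 CPM in control libraries, a log2 fold change of 1.06 (SE 0.33). mt-Nd2, its neighbour on the genome, had 1311, 2924 and 1738 CPM in cKO libraries and 1180.4, 1025 and 741 CPM in control libraries (log2 fold change 1.02, SE 0.32). For both genes replicate 1 was the cKO library nearest to the controls, and the groups did not overlap. mt-Nd4, a proton-pumping subunit, had 1611, 2902 and 2427 CPM in cKO libraries and 1646, 1527 and 1011 CPM in control libraries (log2 fold change 0.73, SE 0.27). mt-Nd5, also a proton-pumping subunit, had 1606, 2765 and 2806 CPM in cKO libraries and 1773, 1639 and 1362 CPM in control libraries, the smallest log2 fold change of the group at 0.59 (SE 0.24). For these 2 genes cKO replicate 1 lay under the control of the same number, so that the groups overlapped. mt-Nd6 is the only protein gene on the light strand and shares 14 bases with the end of mt-Nd5. Because reads were counted without strand, RNA of either strand over the whole gene counts for mt-Nd6, so its level is not that of the light strand alone. mt-Nd6 had 81.0, 151 and 115 CPM in cKO libraries and 72.0, 67.7 and 56.2 CPM in control libraries (log2 fold change 0.82, SE 0.23). The last 2 complex I genes, both inside the chromosome 1 copy, were almost without counts. mt-Nd3 had 13, 9 and 42 raw counts in cKO libraries and 8, 8 and 9 in control libraries. mt-Nd4l had 1, 7 and 32 raw counts in cKO libraries and 5, 3 and 14 in control libraries. Both were under the filter on low counts, and in both the most counts were found in cKO replicate 3.

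mt-Cytb encodes cytochrome b, the single mitochondrially encoded subunit of complex III. It had 5688, 10194 and 7035 CPM in cKO libraries and 5540.3, 5059 and 3418 CPM in control libraries, a log2 fold change of 0.71 (SE 0.29). cKO replicate 1 and control replicate 1 were thus nearly level. In complex IV, cytochrome c oxidase, mt-Co1 had 10299.7, 18945 and 14808 CPM in cKO libraries and 8813, 8428 and 6902 CPM in control libraries (log2 fold change 0.87, SE 0.26), with no overlap. The other mitochondrially encoded oxidase subunits, mt-Co2 and mt-Co3, lie in the chromosome 1 copy. mt-Co2 had 13.7, 38.6 and 66.5 CPM in cKO libraries and 11.8, 11.3 and 31.0 CPM in control libraries (log2 fold change 1.14, SE 0.64, and 0.54 without cKO replicate 3). mt-Co3 had 11.4, 42.8 and 53.1 CPM in cKO libraries and 8.17, 11.6 and 26.6 CPM in control libraries (log2 fold change 1.21, SE 0.65, and 0.81 without cKO replicate 3). In both genes replicate 3 was the highest library of its own group, and neither gene passed the thresholds. Without control replicate 3, their log2 fold changes were 1.77 and 1.84 and both passed, as they did without cKO replicate 1. mt-Atp6, the proton channel subunit of ATP synthase, had 5.26, 13.5 and 35.4 CPM in cKO libraries and 6.15, 3.79 and 14.2 CPM in control libraries (log2 fold change 1.16, SE 0.76), and replicate 3 was again the highest in both groups. Its log2 fold change was 0.22 without cKO replicate 3 and 1.85 without control replicate 3, and it passed the thresholds when cKO replicate 1 was left out. mt-Atp8, the small ATP synthase subunit that shares 43 bases with mt-Atp6, had 1 raw count in each cKO library and 0 in each control library, too few for a fold change.

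mt-Rnr1, the 12S rRNA of the small mitochondrial subunit (chrM:70-1024), had 105, 209 and 139 CPM in cKO libraries and 70.1, 57.2 and 46.9 CPM in control libraries, a log2 fold change of 1.38 (SE 0.27). Each cKO library lay above every control. mt-Rnr2, the 16S rRNA of the large subunit (chrM:1094-2675), had 405, 745 and 304 CPM in cKO libraries and 334, 293 and 102 CPM in control libraries (log2 fold change 0.99, SE 0.51, and 0.54 without cKO replicate 2). Here the groups overlapped, because replicate 3 was the lowest library in both. The only tRNA gene in the table is mt-Tp, the tRNA for proline on the light strand (chrM:15356-15422). At 67 bases it is shorter than a single read of 150 bases, so every read counted for it also covered sequence on one or both sides. Reads of either strand were counted for it, so its level is not that of the light strand alone.
mt-Tp: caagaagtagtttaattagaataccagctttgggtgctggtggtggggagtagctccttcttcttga
mt-Tp had 7.03, 15.4 and 19.5 CPM in cKO libraries and 3.55, 2.89 and 4.48 CPM in control libraries, the largest log2 fold change among the mt- genes tested at 1.94 (SE 0.39). It rested on 147, 290 and 359 raw counts in cKO libraries and 67, 55 and 79 in control libraries.

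**Figure D2:**
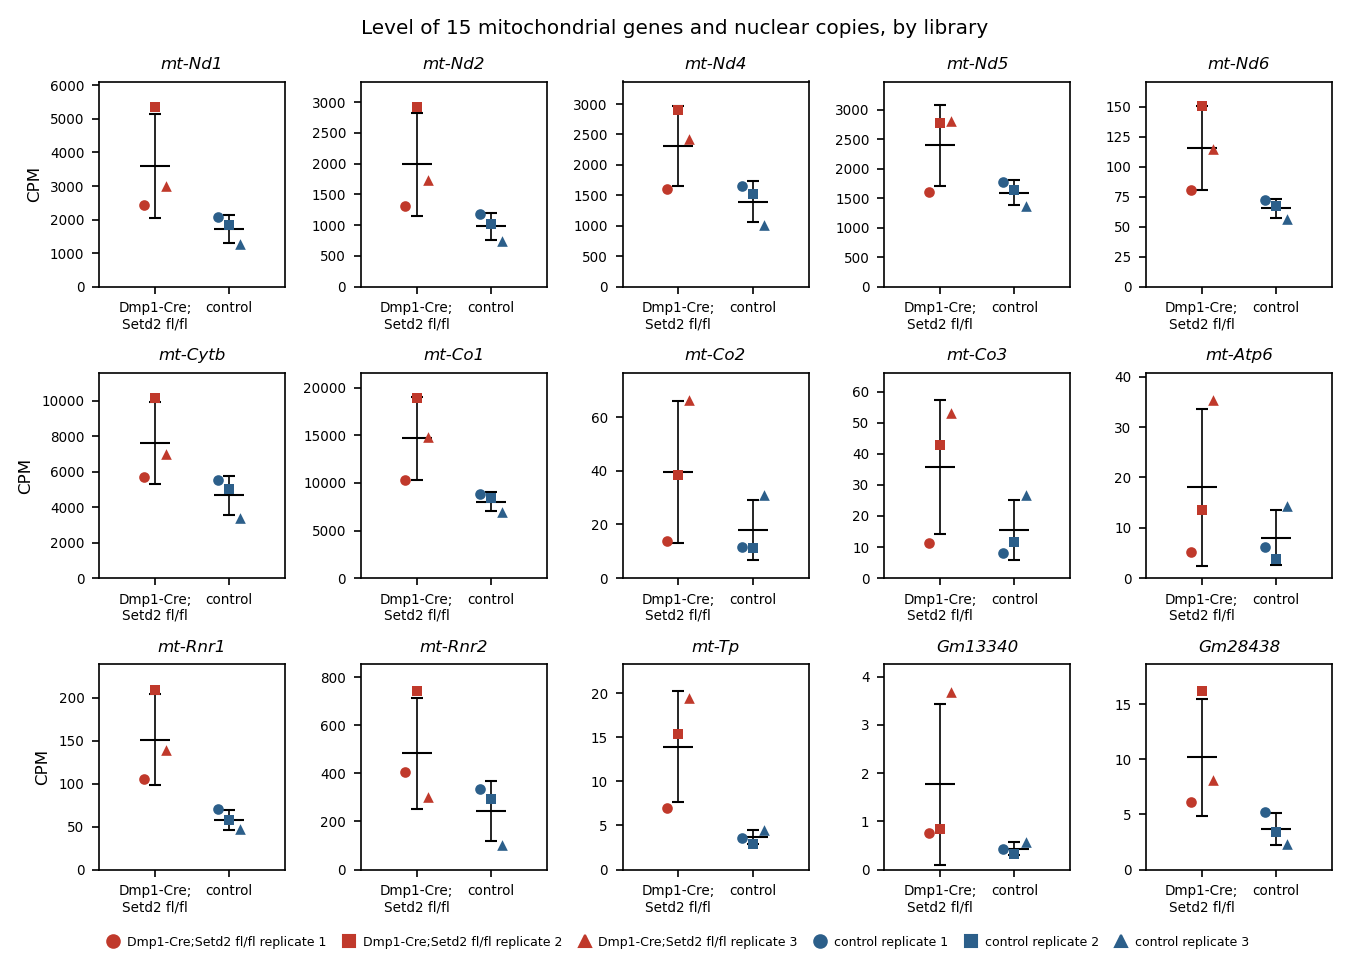
CPM of the 13 mt- genes and 2 nuclear copies that passed the filter on low counts, one panel per gene, each with its own linear axis from 0. Points are libraries, with marker shape giving the replicate number, and bars are the mean ± SD of 3 libraries. mt-Nd1, mt-Co1 and mt-Rnr1 peak in cKO replicate 2, whereas mt-Co2, mt-Co3, mt-Atp6, mt-Tp and Gm13340 peak in cKO replicate 3.

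The thresholds of the study are a log2 fold change of 0.58 or more in either direction with p under 0.05 before adjustment. By these, 9 of the 13 mt- genes that passed the filter on low counts were called higher in cKO by edgeR's quasi-likelihood test, beside 1.1% of all 16519 genes tested. None was called lower, beside 2.71% of all genes tested. In 7 of the 13, all cKO libraries lay above all control libraries, beside 7.26% of all genes tested. The other 6 overlapped, 2 of them (mt-Nd4 and mt-Nd5) among those called. With Benjamini-Hochberg adjustment over all genes tested, no mt- gene was called, at adjusted p = 0.558 to 0.720 by edgeR. No gene at all was called by edgeR, although 1252 had an unadjusted p under 0.05. Among the mt- genes, 3 were called after adjustment by DESeq2 and 2 by limma voom with quality weights. The share of all genes called by these fits was not worked out. When the replicate number was fitted as a block, mt-Tp passed with an adjusted p of 0.0365 by edgeR, beside 0.176% of all genes tested that were called higher that way. The block also took mt-Rnr2, mt-Co2 and mt-Co3 past the thresholds of the study (log2 fold changes 1.07, 1.05 and 1.14) and mt-Nd5 out of them (0.55). Without control replicate 3, the library with the lowest mt- share, the number called higher fell to 5, as mt-Nd1, mt-Nd2, mt-Co1, mt-Nd4, mt-Nd5 and mt-Cytb lost the call and mt-Co2 and mt-Co3 gained it. When each of the 6 libraries was left out in turn, mt-Nd5 lost its call in 5 fits, mt-Nd4 in 4 and mt-Cytb in 3, whereas mt-Rnr1, mt-Nd6 and mt-Tp kept theirs in all 6. With voom and quality weights 2 were called. The median log2 fold change was 1.02 over the 13 mt- genes and 0.02 over all genes tested. Since the members were selected on this contrast, these shares do not add support to it. In library pairs of the same number, the level of mt-Co1 in cKO was 1.17, 2.25 and 2.15 times that in control, and that of mt-Nd5 0.905, 1.69 and 2.06 times.

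Per kilobase of gene, levels of the 16 genes differed widely, and the genes wholly inside the chromosome 1 copy were the lowest. Full gene length was used, although 59.2% of stretches of 150 bases in mt-Nd4 and 23.6% in mt-Co1 occur in the nuclear genome. At 67 bases mt-Tp is shorter than a read, so its level per kilobase is not on a like footing. mt-Co1 was highest, at 9504 ± 2799 CPM per kilobase in cKO and 5209 ± 654 in control (SD, n = 3 each). mt-Cytb came next at 6677 ± 2022 CPM per kilobase in cKO and 4084 ± 973 in control, followed by mt-Nd1 at 3756 ± 1618 in cKO and 1799 ± 435 in control. Each of these was above the next in 6 of 6 libraries. mt-Nd4, mt-Nd2 and mt-Nd5 came after them with control means of 1012, 946 and 873 CPM per kilobase, and their order was not fixed: mt-Nd4 was above mt-Nd2 in 4 of 6 libraries. Next came mt-Rnr2, mt-Nd6, mt-Rnr1 and mt-Tp, with control means of 154, 126, 60.8 and 54.4 CPM per kilobase. mt-Rnr2 was above mt-Nd6 in 4 of 6 libraries and mt-Rnr1 above mt-Tp in 3 of 6. The 6 genes wholly inside the copy took the bottom places. mt-Co2, mt-Co3 and mt-Atp6 had control means of 26.3, 19.7 and 11.8 CPM per kilobase, and mt-Nd4l and mt-Nd3 had 1.37 and 1.30. These 6 genes hold 21.4% of the summed length of the 16 genes and received 0.259% of their counts, 7700 of 2977086 over 6 libraries. mt-Co1 and mt-Cytb together took 67.8%, 65.8% and 67.1% of mt- counts in cKO libraries, against 66.7%, 67.6% and 68.9% in control libraries. Both rRNAs thus lay under the 6 highest mRNAs per kilobase. Whether poly(A) selection or rRNA depletion was used is not given in the sources used here.

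**Figure D3:**
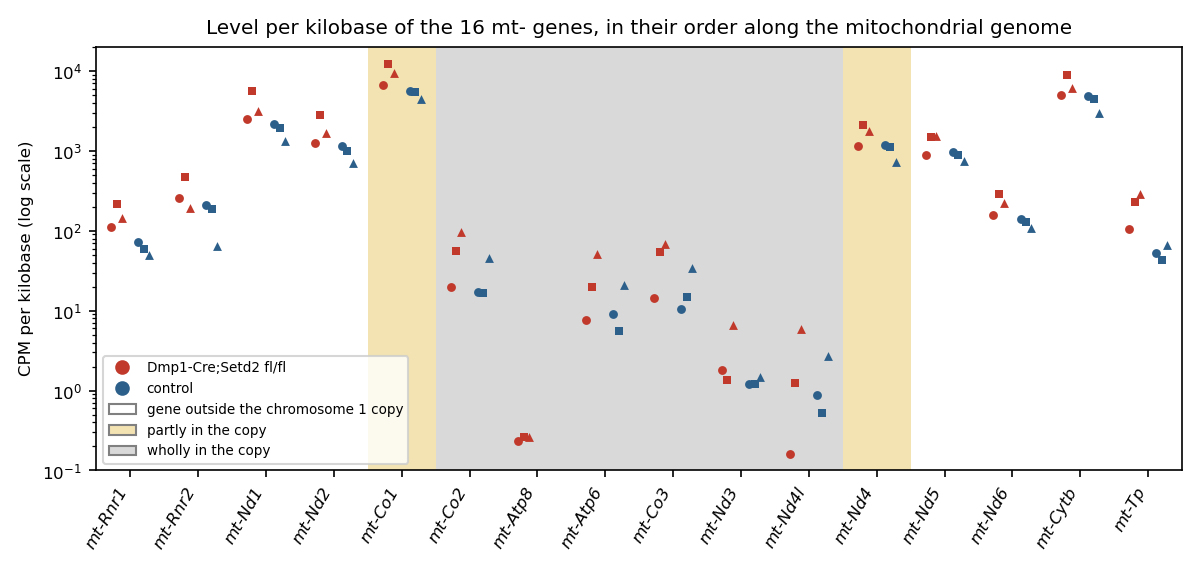
CPM per kilobase of gene (log axis) for the 16 mt- genes in their order along the mitochondrial genome, with cKO libraries left of control libraries for each gene and marker shape giving the replicate number. Grey shading marks the 6 genes wholly inside the chromosome 1 copy and yellow the 2 partly inside it. mt-Atp8 has no control points because it had 0 counts there, and the shaded grey genes lie under 100 CPM per kilobase in every library.

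Ratios within a library do not depend on the library total, and they were most stable for mt-Nd6. It had 7.87, 7.96 and 7.73 counts per 1000 mt-Co1 counts in cKO libraries, against 8.17, 8.03 and 8.15 in control libraries, a slightly lower ratio in every cKO library. mt-Nd5 had 156, 146 and 190 counts per 1000 mt-Co1 counts in cKO libraries, against 201, 195 and 197 in control libraries, again with cKO under control. mt-Rnr1 went the other way, with 10.2, 11.03 and 9.38 counts per 1000 mt-Co1 counts in cKO libraries and 7.95, 6.78 and 6.80 in control libraries. mt-Tp had 0.683, 0.812 and 1.32 counts per 1000 mt-Co1 counts in cKO libraries and 0.403, 0.344 and 0.649 in control libraries, also without overlap. Of the 15 mt- genes set against mt-Co1, these 4 did not overlap between the groups, nor did mt-Atp8 with its 3 counts in all. Per 100 counts on all mt- genes, mt-Nd5, mt-Nd6 and mt-Tp overlapped, so their separation depends on the choice of mt-Co1, and only mt-Rnr1 and mt-Atp8 of 16 genes stayed apart. mt-Rnr1 had 0.446, 0.472 and 0.427 per 100 mt- counts in cKO libraries and 0.325, 0.286 and 0.313 in control libraries. None of these ratios was tested. No share of all genes was worked out for them either, so the numbers of genes without overlap are a description alone. A second pattern followed the replicate number rather than the genotype. The 6 genes wholly inside the chromosome 1 copy had 3.02, 5.06 and 10.7 counts per 1000 mt-Co1 counts in cKO libraries, against 3.04, 3.24 and 10.6 in control libraries. Replicate 3 was the highest library in both groups, at nearly the same value. mt-Rnr2 had 3.85, 3.56 and 2.19 counts for each mt-Rnr1 count in cKO libraries, against 4.77, 5.13 and 2.18 in control libraries, and here replicate 3 was the lowest in both groups. Summed levels of dental epithelium markers, such as the enamel gene Amelx, also set replicate 3 apart, at 7136, 2217 and 50031 CPM in cKO libraries and 7393, 2749 and 30312 CPM in control libraries. Their part in these ratios was not tested.

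**Figure D4:**
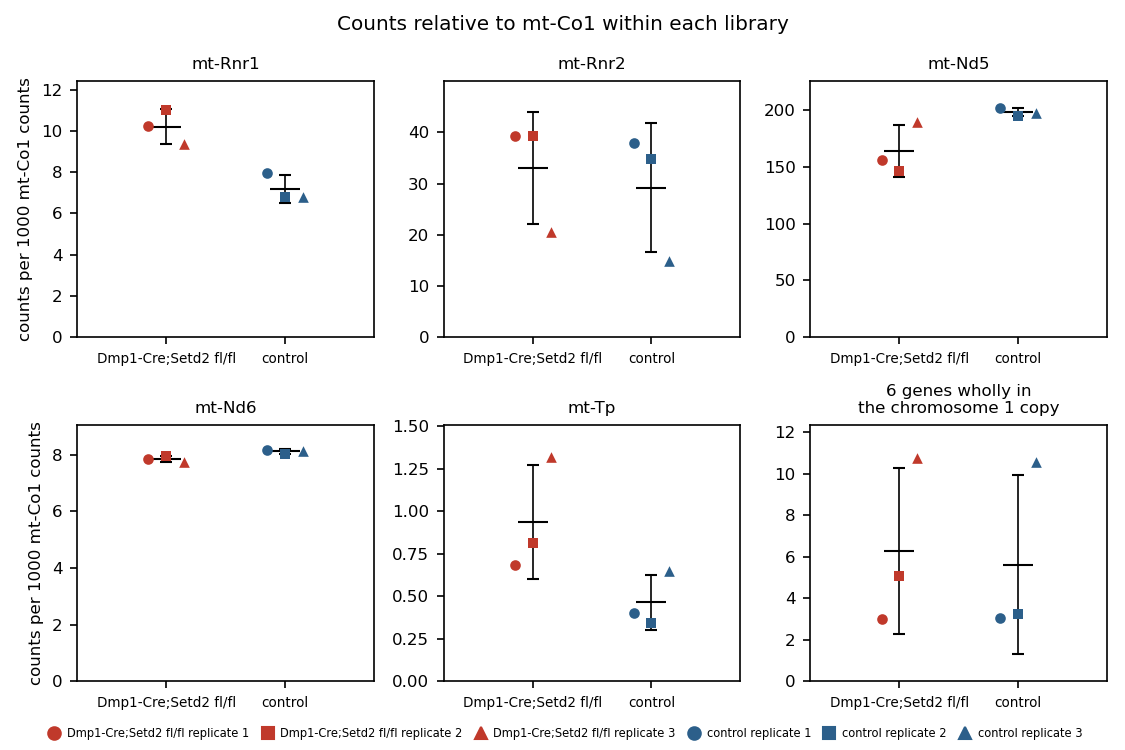
Counts of mt-Rnr1, mt-Rnr2, mt-Nd5, mt-Nd6, mt-Tp and the 6 genes wholly inside the chromosome 1 copy per 1000 mt-Co1 counts in the same library, on linear axes from 0. Points are libraries, with marker shape giving the replicate number, and bars are the mean ± SD of 3 libraries. Triangles, the replicate 3 libraries, stand apart in both groups for mt-Rnr2 (20.5 in cKO and 14.8 in control) and for the 6 genes in the copy (10.7 in cKO and 10.6 in control).

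The nuclear copies had few counts. Gm28438, the copy of mt-Nd3, had 128, 306 and 150 raw counts in cKO libraries and 98, 65 and 41 in control libraries, a log2 fold change of 1.47 (SE 0.45). That was more than mt-Nd3 itself in every library, at 9.85, 34 and 3.57 counts for each mt-Nd3 count in cKO libraries and 12.2, 8.12 and 4.56 in control libraries. Gm13340, the copy of mt-Co1, had 16, 16 and 68 raw counts in cKO libraries and 8, 6 and 10 in control libraries (log2 fold change 2.00, SE 0.72), and most of its cKO counts came from replicate 3. Without that library its log2 fold change was 0.88 and the call was lost, as it was without control replicate 1 (1.99) or control replicate 2 (1.82). With all libraries, both copies were called higher at the thresholds of the study and lay without overlap. Relative to 1000 mt-Co1 counts, Gm28438 had 0.594, 0.856 and 0.550 counts in cKO libraries and 0.590, 0.406 and 0.337 in control libraries. Gm13340 had 0.0743, 0.0448 and 0.249 in cKO libraries and 0.0482, 0.0375 and 0.0821 in control libraries on the same scale, so that both overlapped once scaled to mt-Co1. The table lists 7 further copies, of which 5 passed the filter. Gm10925, which by its place between these pseudogenes is the copy of mt-Atp6, had 358, 728 and 915 raw counts in cKO libraries and 244, 262 and 296 in control libraries (log2 fold change 1.28, SE 0.37), also without overlap and past the thresholds. Gm28437, Gm28661 and Gm29216, copies of mt-Co3, mt-Co2 and the end of mt-Co1, had log2 fold changes of 0.98 (SE 0.49), 1.06 (SE 0.50) and 1.00 (SE 0.57) and passed no threshold. Gm28439, the copy of the start of mt-Nd4, had 35, 113 and 186 raw counts in cKO libraries and 192, 39 and 55 in control libraries, with no common direction. Gm13339 and Gm13341 on chromosome 2 had 6 and 44 raw counts over all 6 libraries. Where the sequences are identical, a count cannot be assigned to the mitochondrial gene or to its copy.

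Of the 268 nuclear genes of mitochondria that were tested, in 8 lists, 1 was called higher and none lower at the thresholds of the study, beside 1.1% and 2.71% of all genes tested. By edgeR, 8 of the 268 had an unadjusted p under 0.05, beside 1252 of all 16519 genes tested. The gene called higher was Mrps6, a protein of the small mitochondrial ribosomal subunit, with 12.8, 16.6 and 13.8 CPM in cKO libraries and 9.92, 9.16 and 8.90 CPM in control libraries (log2 fold change 0.63, SE 0.16, adjusted p = 0.615 by edgeR). Among the 77 mitochondrial ribosomal proteins, 67 had a log2 fold change above 0, with a median of 0.18, and in 20 all cKO libraries lay above all controls, beside 7.26% of all genes tested. Over all genes tested, 52.6% were above 0. Their summed level was 2165, 2520.2 and 2206 CPM in cKO libraries, against 2085, 2097 and 2045 CPM in control libraries. After Mrps6, the smallest p in this list belonged to Mrpl32 and Mrps31, with log2 fold changes of 0.58 (SE 0.26) and 0.33 (SE 0.15). Nuclear subunits of oxidative phosphorylation were above 0 in 68 of 79, with a median of 0.11, and 4 (5.06%) lay without overlap above control, a smaller share than over all genes tested. Their summed level was 8138, 10085 and 7892 CPM in cKO libraries and 7831, 8032 and 7761 CPM in control libraries, with cKO replicate 2 the highest library, as it was for 8 of the 13 mt- genes. In this list, Ndufa10 of complex I had a log2 fold change of 0.38 (SE 0.15), Cox7a2l, which joins complexes III and IV, 0.46 (SE 0.18) and Cox4i1 of complex IV 0.28 (SE 0.14).

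Genes for transcription and replication of the mitochondrial genome were spread around 0, with 13 of 22 above it and a median of 0.02. Polrmt, the mitochondrial RNA polymerase, had 32.0, 25.3 and 34.6 CPM in cKO libraries and 29.3, 35.2 and 33.5 CPM in control libraries. Tfam, which packages and activates mitochondrial DNA, had 39.0, 53.8 and 32.4 CPM in cKO libraries and 34.9, 37.8 and 32.3 CPM in control libraries, and neither gene set the groups apart. Both were chosen for their role, and the 3 smallest p-values in the list belonged to Polg, the mitochondrial DNA polymerase (log2 fold change -0.24, SE 0.12), Lig3, its DNA ligase (-0.19, SE 0.11), and Tfb2m, a transcription initiation factor (0.22, SE 0.15). Of the RNA processing and stability genes, 20 of 26 were above 0, with a median of 0.14. In 6 of them (23.1%) all cKO libraries lay above all controls, beside 7.26% of all genes tested. Their summed level was 792, 855 and 826 CPM in cKO libraries and 782, 764 and 778 CPM in control libraries. They were led by Grsf1, an RNA-binding protein of mitochondrial RNA granules, with 83.0 ± 7.43 CPM in cKO and 68.5 ± 2.10 CPM in control (SD, n = 3 each) and a log2 fold change of 0.28 (SE 0.10). Next came Hsd17b10, a subunit of mitochondrial RNase P (0.25, SE 0.13), and Ptcd2 (0.29, SE 0.15). Biogenesis regulators had a median of 0.07, with 7 of 9 above 0. Their smallest p-values belonged to the transcription factor subunit Gabpa (0.26, SE 0.11) and the coactivators Pprc1 (-0.20, SE 0.14) and Ppargc1a (0.36, SE 0.30).

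Import genes were above 0 in 18 of 21, with a median of 0.14. Their summed level was 858, 1035 and 850 CPM in cKO libraries and 829, 824 and 795 CPM in control libraries. All cKO libraries lay above all controls in 9.52% of import genes, beside 7.26% of all genes tested. The shares were 0% for transcription and replication, 22.2% for the 9 biogenesis regulators, 11.8% for stress response and 5.88% for dynamics and mitophagy. The outer membrane receptors Tomm70a, Tomm22 and Tomm20 had log2 fold changes of 0.33 (SE 0.12), 0.37 (SE 0.13) and 0.28 (SE 0.14). In the stress response list, 9 of 17 were above 0, with a median of 0.02. The mitochondrial chaperones Hspa9, Hspd1 and Hspe1 had log2 fold changes of 0.31 (SE 0.12), 0.34 (SE 0.13) and 0.33 (SE 0.17). Chac1, a glutathione-degrading enzyme induced by ATF4, stood out for its spread, with 1.15, 1.27 and 17.9 CPM in cKO libraries and 21.5, 15.8 and 36.0 CPM in control libraries (log2 fold change -1.85, SE 1.05). It was named after its values were seen. Genes of mitochondrial dynamics and mitophagy had a median of 0.11, with 13 of 17 above 0. The mitophagy receptor Bnip3l had a log2 fold change of 0.40 (SE 0.18) and the mitofusin Mfn1 0.17 (SE 0.09). No gene of these last 6 lists passed the thresholds, and the smallest adjusted p among the genes named in them was 0.629 by edgeR (Tomm70a).

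**Figure D5:**
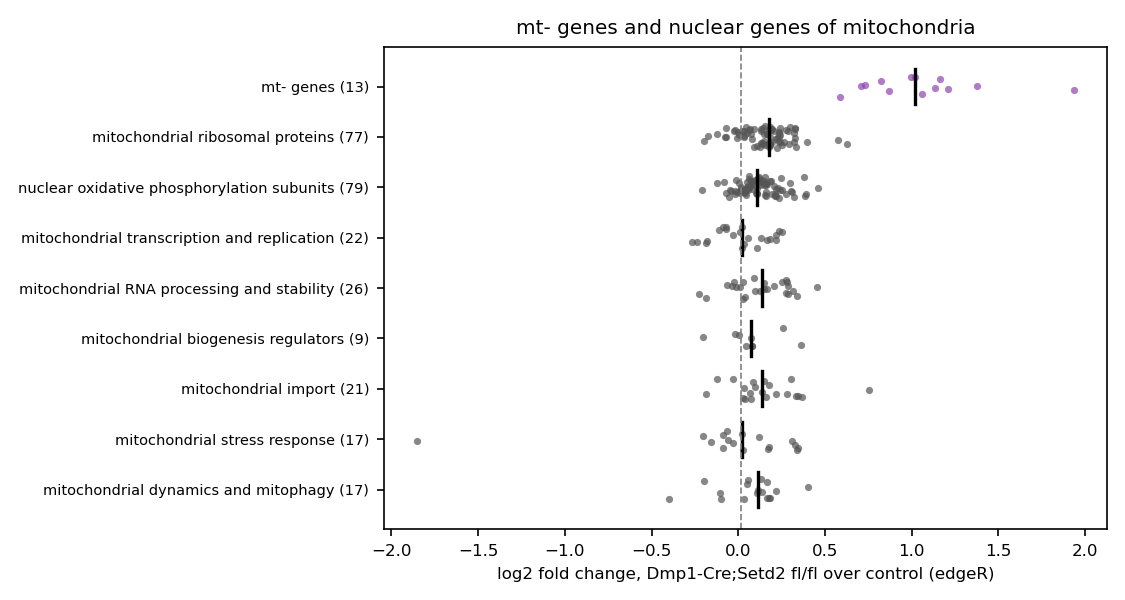
Log2 fold change, cKO over control, of the 13 mt- genes tested and of the nuclear genes in each of 8 lists, with the number of genes tested in brackets. Each point is a gene, black bars are list medians and the dashed line is the median of all genes tested, 0.02. The mt- genes lie between 0.59 and 1.94, and the list medians of the nuclear genes lie between 0.02 and 0.18.

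The summed levels of 3 marker lists (odontoblast, osteoblast and adipocyte) set the groups apart, and those of the other cell types overlapped. Odontoblast markers were Dspp, a gene of non-collagenous dentin matrix, Dmp1, Nes, Phex, Col1a1, Col1a2, Sema3e and Col11a2. They summed to 10361, 7867 and 56769 CPM in cKO libraries, against 99216, 100414 and 117009 CPM in control libraries. Of these markers, 7 of 8 were called lower, beside 2.71% of all genes tested, and 4 of 8 with the replicate block. The study had itself reported Dspp, Dmp1, Phex, Col1a1, Sema3e and Col11a2 as lower in these libraries, so these counts are a description alone. Within cKO, replicate 2 was lowest for odontoblast markers and highest for the mt- share, but replicate 1 had fewer odontoblast marker counts than replicate 3 and also a lower mt- share. Osteoblast markers summed to 1456, 1434 and 2356 CPM in cKO libraries and 2520, 2614 and 2889 CPM in control libraries. Of these, 2 of 6 were called lower, beside 2.71% of all genes tested, and none under the block. For the block at the thresholds of the study, no share of all genes was worked out. Neutrophil markers summed to 68.5, 137 and 5.65 CPM in cKO libraries and 21.1, 12.2 and 4.59 CPM in control libraries, with 5 of 8 passing the filter. Of these 5, 2 were called higher, beside 1.1% of all genes tested, and 3 under the block. Macrophage markers summed to 1652, 2062 and 614 CPM in cKO libraries and 1178, 1314 and 799.7 CPM in control libraries. Adipocyte markers, of which Fabp4 alone passed the filter, summed to 3.78, 10.3 and 1.95 CPM in cKO libraries and 1.38, 1.63 and 1.30 CPM in control libraries. Markers of skeletal muscle, a tissue rich in mitochondria, stayed between 6.57 and 8.13 CPM in cKO and between 7.59 and 8.16 CPM in control, with 4 of 12 passing the filter. Dental papilla mesenchyme markers summed to 5401, 6004 and 6065 CPM in cKO libraries and 5357, 5794 and 6422 CPM in control libraries, with 11 of 12 passing the filter. Among RNAs retained in the nucleus (Malat1, Neat1, Meg3 and Kcnq1ot1), the sum was 1593, 1123 and 818 CPM in cKO libraries and 2432, 1943 and 1031 CPM in control libraries. Of these, 1 of 4 was called lower, beside 2.71% of all genes tested, and 2 under the block. The part of these differences in the level of the mt- genes was not tested.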

How the data were processed

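For 6 libraries (3 per group), the authors aligned paired reads of 150 bases using HISAT2, and HTSeq then gave a count for each gene, unstranded. The deposited table holds raw counts for 31613 genes, and GRCm39, Bowtie2 and DESeq2 also appear in the submitters' processing notes. Columns of the authors' own comparison were not used. Nuclear positions here come from a match with BLAST 2.17.0 to GRCm39, not from the table. The table's own positions for the nuclear copies differ from GRCm39, so the build behind its counts is not settled.

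In R 4.3.3, edgeR 4.0.16 filtered the table (filterByExpr, minimum count 10), scaled it by TMM and tested 16519 genes by its robust quasi-likelihood method, with p-values adjusted after Benjamini and Hochberg. The scripts were tested on simulated data. Intervals are standard errors or SDs over libraries. No 2 libraries of the same group agreed within sampling noise, so none was merged. Alternatives were DESeq2 1.42.0, RLE size factors, scaling from nuclear genes alone, totals that leave out the 100 highest genes, no filter, a strict filter of 10 counts in every library, limma 3.58.1 voom with quality weights, a replicate block, each library left out, and replicate 3 left out of both groups. Across genes, libraries 1, 2 and 3 of cKO deviated from their group mean together with controls 1, 2 and 3 (correlations 0.512, 0.536 and 0.720). However, cKO replicate 1 with control replicate 2 gave 0.545, and cKO replicate 2 with control replicate 1 gave 0.458. Replicate 3 with any other number gave -0.571 to -0.664. These values set replicate 3 apart but do not pair replicates 1 and 2 by number. The replicate block was therefore kept as an alternative, and the main fit had no block. The members and gene lists were chosen with earlier results of these data known. Named genes were all members, the listed copies, genes of each list called at the thresholds and otherwise up to 3 with the smallest p; any other gene was named for its role or after its values were seen. A result that this rule would name is not reported here.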

Additional observations from a re-analysis of the deposited data

How the results depend on the processing

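All 15 members with a fitted value kept a positive log2 fold change under every alternative that gave one. The number of mt- genes called higher at the study's thresholds ranged from 5 to 12 with single libraries left out (5 without control replicate 3, which took out mt-Nd1, mt-Nd2 and mt-Co1 among others), against 9 with all libraries. It was 2 with voom and quality weights (mt-Rnr1 and mt-Tp), where the median log2 fold change of the mt- genes was 0.48, and 12 with DESeq2. At an adjusted p under 0.05 there were 3 with DESeq2 (mt-Rnr1, mt-Tp and mt-Co1), 2 with voom, 1 with the replicate block and 1 with replicate 3 left out of both groups (mt-Tp in both), and 0 with any single library left out. Among the nuclear genes of mitochondria, the number called higher was 2 with DESeq2, 2 with no filter on low counts (Mrps6 and Mrpl32 in both), 2 with the replicate block (Mrps6 and Timm8a1), 0 with voom and 3 with replicate 3 left out of both groups, and it ranged from 0 without cKO replicate 2 to 5 without cKO replicate 3. The number called lower was 3 with voom (Chac1, Ddit3 and Ndufs5) and 2 with replicate 3 left out of both groups (Chac1 and Ddit3), and ranged from 0 to 2 with single libraries left out, the 2 without cKO replicate 3. At an adjusted p under 0.05 there were 5 with voom (Chac1, Hspd1, Mrps6, Tomm22 and Tomm70a), 2 with replicate 3 left out of both groups (Chac1 and Ddit3) and 0 to 1 with single libraries left out (Chac1 without cKO replicate 3). Shares of all genes called were worked out only for the main fit and, after adjustment, for the replicate block. Counts from the other fits thus have no such share beside them. The cause of these differences was not tested. Depth limits mt-Nd3, mt-Nd4l, mt-Atp8 and Gm13340, which rest on 3 to 124 counts over all libraries.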
